A study of Mus musculus with 15 samples.

Results

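The mature strands of 3 mouse microRNA (miRNA) hairpins, miR-126a, miR-221 and miR-222, were followed across 15 small RNA libraries. The members were chosen by name: both arms of each hairpin, which makes 6 of the 1558 mature miRNA names counted in the series. All 6 passed the filter on low counts that left 693 names for the tests of abundance. The RNA was a commercial mouse total RNA panel, and each tissue or embryo stage was sequenced once by AQ-seq, a small RNA protocol that ligates adapters with randomized ends to lower the preference of the ligase for particular sequences. The nervous class held brain, spinal cord and eye (n = 3), the embryo class held whole embryos named by day as 11-day, 15-day and 17-day (n = 3), and the class of other adult tissues held heart, kidney, liver, lung, salivary gland, smooth muscle, spleen, stomach and testis (n = 9). No treatment or mutant allele is named for any of them, and strain, age, sex and the number of animals pooled are not stated in the labels. The labels of the 17-day embryo disagree on its day, and its title was used.

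A miRNA hairpin is cut by Dicer into a duplex whose strands come from its 5p and 3p arms, and an Argonaute protein keeps mainly one of them as the guide. Bases 2 to 8 of the guide, the seed, pair with target messenger RNAs. miR-126a is best known from endothelial cells, which line blood vessels; its hairpin lies in Egfl7, a gene for a protein secreted by endothelium, and work on vessels has described roles for both of its strands, the 3p strand in signalling by vascular growth factors and the 5p strand in endothelial proliferation. miR-221 and miR-222 are made from neighbouring hairpins and are known from endothelium and vascular smooth muscle, where Kit and the cell cycle inhibitor p27 are among their known targets, and from many dividing cell types.

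Mature sequences were taken from RefSeq on build GRCm38.p6, which had entries for 4 of the 6 members, and are shown because the seed decides which members can be counted as a family. Capitals mark the seed.
miR-126a-3p: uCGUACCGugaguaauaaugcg
miR-221-3p: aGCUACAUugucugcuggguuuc
miR-222-3p: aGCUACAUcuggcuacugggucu
miR-221-5p: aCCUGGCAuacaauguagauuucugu
miR-221-3p and miR-222-3p are both 23 bases long and shared their first 8 bases, seed included, and 11 positions in all, counted from the 5′ end. Among the 1679 mature names of the table, miR-1928 was the only other one with their seed, and it had 0 reads in these libraries. No other name had the seed of miR-126a-3p or of miR-221-5p.

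The hairpins are shown in the same orientation, with the 3p strand in capitals, to place both arms.
Mir126a: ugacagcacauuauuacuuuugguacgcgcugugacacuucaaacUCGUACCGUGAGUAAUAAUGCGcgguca
Mir221: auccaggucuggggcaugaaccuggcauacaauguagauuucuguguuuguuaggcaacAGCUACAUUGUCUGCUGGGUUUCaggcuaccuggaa
Mir222: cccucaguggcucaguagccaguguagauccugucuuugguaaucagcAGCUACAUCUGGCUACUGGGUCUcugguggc
Mir126a lies at chr2:26591357-26591429 on the plus strand, inside the protein-coding gene Egfl7 (chr2:26580014-26593120, plus strand). Of the 9 Egfl7 transcripts that span the hairpin, 1 has an exon there, and in the rest it is intronic. The gene model Gm20532 also spans it on the plus strand, and Mir126b lies opposite on the minus strand. Mir221 (chrX:19146294-19146388) and Mir222 (chrX:19146893-19146971) are both on the minus strand, 504 bases apart, and overlap no other annotated gene. None of the 3 hairpins shared a run of 18 bases with another hairpin of the table. miR-126b-3p and miR-126b-5p had 14 and 21 reads over all libraries, so the opposite strand added little to the locus.

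The libraries held 148052 to 3161463 reads. Testis was the shallowest, and stomach was next with 922137. Levels are read counts scaled to a common library size (CPM) by TMM, a method that sets the middle of the expression ratios of most names equal between libraries. The TMM factors ran from 0.449 in heart to 2.25 in the 11-day embryo, and those of the embryos were all at least 1.92, so levels are also given below as a plain percent of a library's reads. Counting intervals are at 95% and cover counting error only. The library labelled smooth muscle had the highest summed level of all libraries for a list of epithelial miRNAs, at 413144 CPM. Of this, miR-194-5p held 259058 and miR-192-5p 61866 CPM. Salivary gland was next with a sum of 103806 CPM, and stomach had 83919 CPM. Stomach was the highest for the smooth muscle miRNAs, at 317520 CPM against 275122 CPM in the library labelled smooth muscle. With total RNA of whole tissues, fewer endothelial cells and less of a miRNA per cell cannot be told apart.

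mmu-miR-126a-3p (written miR-126a-3p here) was the most abundant member in 14 of 15 libraries. Its level was 101763 CPM in heart, 96235 in lung, 35824 in liver and 24432 in kidney, then 13949 in smooth muscle, 13399 in salivary gland and 12338 in spleen. Lower levels followed in eye (8310 CPM), stomach (6326), spinal cord (6324), brain (4770) and testis (4546). The embryos were last, with 4168 CPM on day 17, 3816 on day 15 and 3452 on day 11. The highest and lowest libraries were 29.5-fold apart. Of the 14 steps in this order, only those between stomach and spinal cord and between brain and testis lay within overlapping counting intervals; with 1 library per tissue there is no spread between animals to set them against. As a plain share of reads the strand made up 6.75% of the lung library and 4.57% of the heart library, so heart and lung change places with the scaling, as do kidney (2.67%) and liver (1.801%), and lung had it as the second most abundant of the 693 names. In that share the embryos, at 0.733% to 0.882%, were above testis (0.700%), eye (0.685%), brain (0.539%) and stomach (0.535%).

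mmu-miR-126a-5p had a similar order at a lower level. It was highest in lung (30919 CPM), heart (26627) and liver (15772), and reached 6155 CPM in kidney and 4747 in spleen. Between 1342 and 3566 CPM were found in salivary gland, smooth muscle, eye, spinal cord, testis, stomach and brain. The embryos had 991 to 1205 CPM. Although it is the minor strand of its hairpin, it ranked 13th among the names of the lung library and 22nd among those of heart. Across the 15 libraries the log2 levels of the strands had a Pearson r of 0.985, as a description of points that share a hairpin and a scaling.

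mmu-miR-221-3p had a different order of tissues. It was highest in kidney (6587 CPM), lung (5761), salivary gland (5723), brain (5291) and liver (4164). Heart, the top library for miR-126a-3p, had 2628 CPM, near stomach (2587) and spleen (2300). Smooth muscle had 1926 CPM, eye 1572, spinal cord 758 and testis 513. The embryos had 318 to 444 CPM. Brain and spinal cord, both nervous tissue, were thus on opposite sides of the median library (2300 CPM).

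mmu-miR-222-3p was highest in brain at 5466 CPM, ahead of lung (3841), kidney (3180), salivary gland (2685) and stomach (1967). Spleen had 1240 CPM, liver 1111, smooth muscle 1038 and heart 946. Eye (794 CPM) and spinal cord (787) did not differ beyond counting error, nor did liver and smooth muscle or smooth muscle and heart. The lowest levels were 274 CPM in the 17-day embryo, 232 in testis, 222.5 in the 11-day embryo and 219 in the 15-day embryo. The counting interval of testis (174 to 304 CPM) took in those of every embryo, and those of the 11-day and 15-day embryos overlapped. Brain was the single library in which miR-222-3p (0.618% of reads) and miR-221-3p (0.598%) were each more abundant than miR-126a-3p (0.539%).

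The 5p strands of these hairpins were rare. mmu-miR-221-5p ranged from 74.2 CPM in brain (265 reads) to 2.37 CPM in the 11-day embryo (8 reads), and mmu-miR-222-5p from 26.1 CPM in salivary gland (41 reads) to 0 of 53 reads of its hairpin in testis, where a count of 0 allows a 5p share of up to 5.66% (the floor of 3 counts over 53) and the exact interval reaches 6.72%. All 14 neighbouring steps in the order of either strand lay within overlapping intervals. Only some libraries farther apart in the order can be told apart at this depth. The place of testis for miR-222-5p is not settled, since its interval reached 16.2 CPM, above the level in brain (14.6 CPM).

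**Figure D1:**
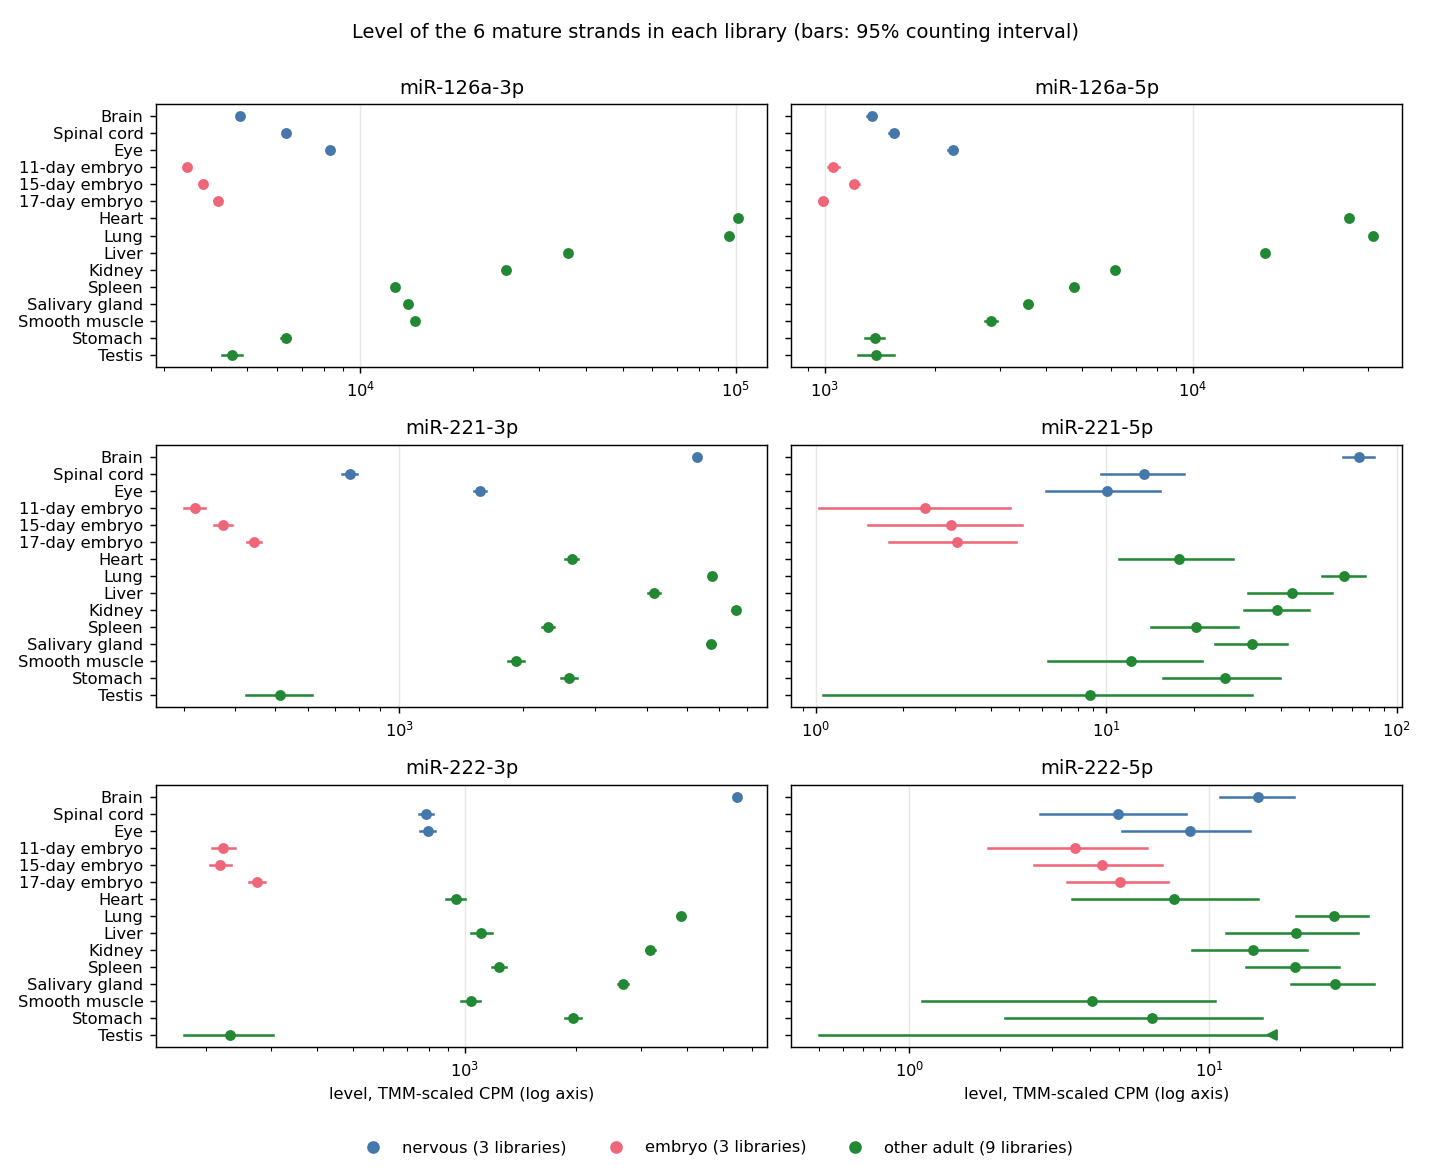
Level of each mature strand (TMM-scaled CPM, log axis) in the 15 libraries, with bars for the 95% counting interval and colours for the 3 classes; the triangle marks the upper limit for testis, which had 0 reads of miR-222-5p. Heart and lung lead for miR-126a, brain is among the highest for miR-221 and miR-222, and the 3 embryos are at the low end for both strands of miR-126a and of miR-221.

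A library was counted as high or low for a strand when its level was at least 2-fold from the median of the other libraries. In lung all 6 strands were high, where 20.6% of all names were. In kidney 5 of 6 were high (12.4% of all names), in liver 4 (18.6%), in salivary gland 3 (14.3%) and in brain 3 (36.4%), these being miR-221-3p, miR-221-5p and miR-222-3p. Heart was high for both strands of miR-126a alone (21.6% of all names). In the 11-day embryo 6 of 6 were low (24.1% of all names), and in testis 5 (38.1%). Arms of a hairpin share a precursor and miR-221 and miR-222 a locus, so these are not 6 separate cases. With total counts in place of TMM, 21 of the 25 high values and 6 of the 23 low values were still past 2-fold.

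Both arms of miR-126a were read in every library. The 5p share, the 5p reads as a percent of the reads of both arms, was 22.1% on average over the 15 libraries. It was highest in liver at 30.6% (30.1 to 31.0%) and spleen at 27.8% (27.3 to 28.3%). Lung (24.3%), the 15-day embryo (24.0%), the 11-day embryo (23.4%), testis (23.3%), brain (22.0%), eye (21.2%), salivary gland (21.0%), heart (20.7%), kidney (20.1%), spinal cord (19.6%) and the 17-day embryo (19.2%) formed a close series. Stomach (17.8%) and smooth muscle (16.9%, 16.3 to 17.5%) were lowest. Most of these differences exceed counting error: in 88 of the 105 pairs of libraries the intervals were separate. Lung and heart, the libraries with the most miR-126a-3p under either scaling, differed in 5p share by more than their counting error.

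Against other hairpins, miR-126a had a large minor arm. Over 219 hairpins, each with 20 reads or more in 10 libraries or more, the median minor arm held 3.85% of reads, and 43 hairpins (19.6%) had a mean minor arm of at least 20%; mir-126a was 37th in that order. The SD over libraries of its log2 ratio of 5p to 3p reads was 0.30, where counting error alone would give 0.03; over the hairpins the median SD was 0.77 and the median counting error 0.42. With counting error subtracted, a step chosen after seeing the data, the SD of mir-126a was 0.29 against a median of 0.52, and 52 of the 219 hairpins had a lower value, among them 32 whose SD did not exceed their counting error. Without that step 3 hairpins had a lower SD. In points of 5p share its range was 13.7, above the median range of 5.89 points over the same hairpins.

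miR-221 and miR-222 were nearly 1-sided. Their 5p shares averaged 0.941% and 0.943%. For mir-221 the share was highest in spinal cord (1.75%, 1.24 to 2.39%) and brain (1.38%, 1.22 to 1.56%), apart from testis, where it rests on 2 reads, and lowest in salivary gland (0.553%, 0.411 to 0.728%). For mir-222 brain had the lowest share of the libraries with any 5p read, at 0.266% (0.198 to 0.348%), and the highest were the 15-day embryo (1.97%, 1.17 to 3.09%), the 17-day embryo (1.803%) and liver (1.72%). Brain was therefore near the top for the 5p share of mir-221 and near the bottom for that of mir-222. Its mir-222 interval overlapped those of stomach, smooth muscle, kidney, spinal cord and testis. Separate intervals were found in 17 of 105 pairs of libraries for mir-221 and 31 of 105 for mir-222. The SD of the log2 ratio was 0.58 for mir-221, where counting error alone would give 0.38, and 0.94 for mir-222, where it would give 0.65.

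**Figure D2:**
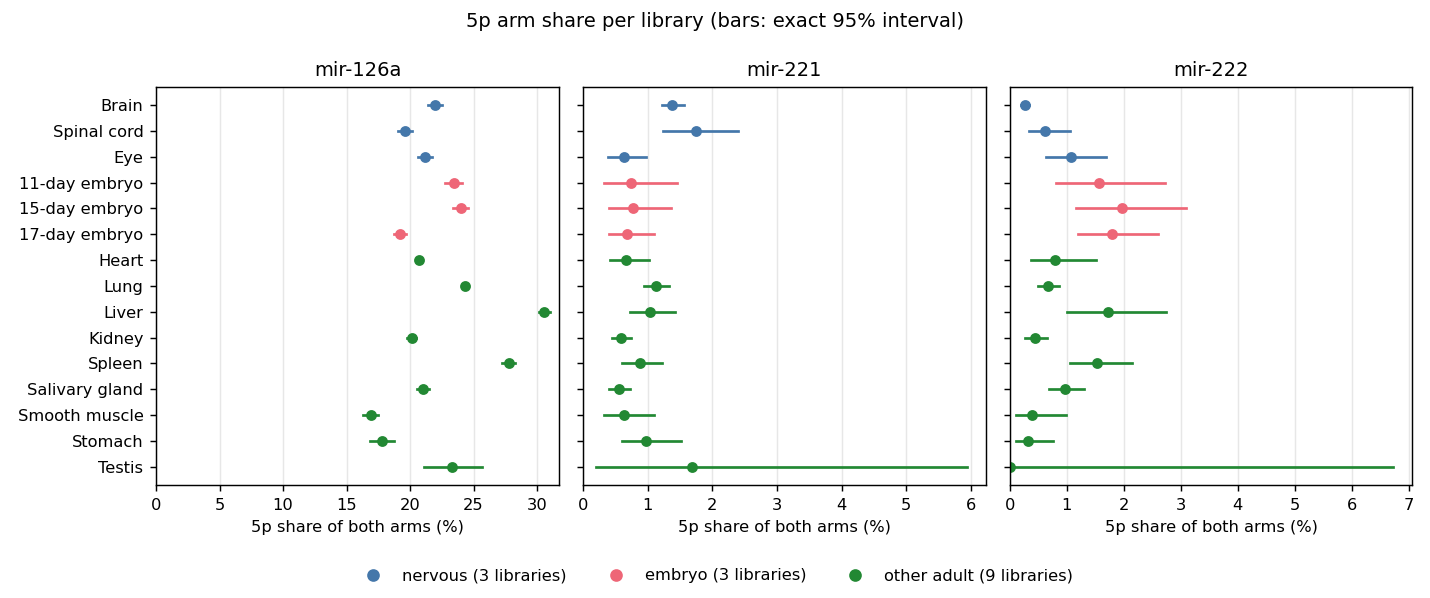
5p share (% of the reads of both arms) of the 3 hairpins in each library, with exact 95% intervals and colours for the classes; the axes differ in range. The shares of mir-126a lie between 16.9% and 30.6%, with liver and spleen highest, while those of mir-221 and mir-222 stay below 2%.

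**Figure D3:**
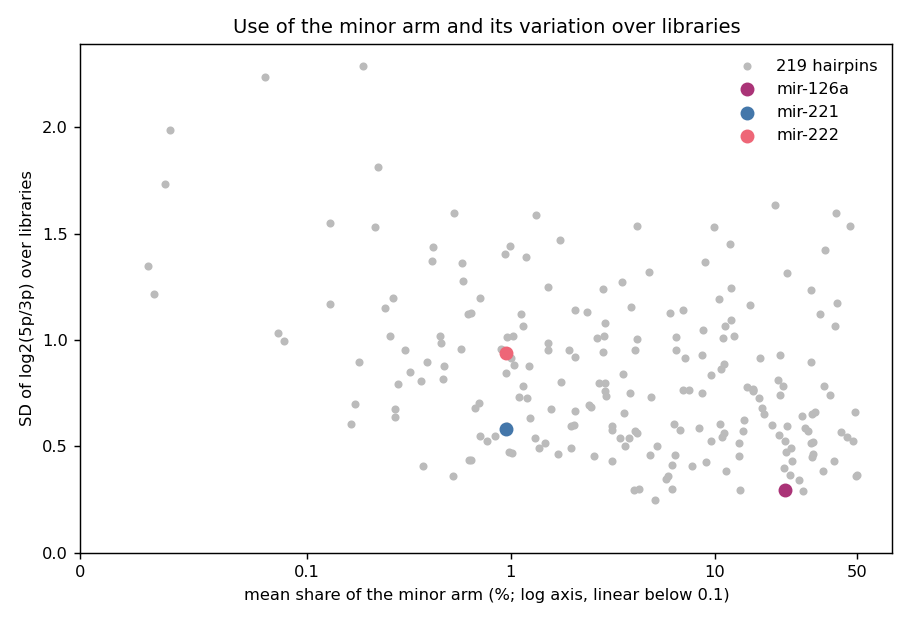
Each point is 1 of 219 hairpins: the mean share of its minor arm (%, log axis, linear below 0.1) against the SD over libraries of the log2 ratio of 5p to 3p reads. mir-126a, with a minor arm of 22.1% and an SD of 0.30 that includes counting error, as all SDs here do, is at the lower right, and mir-221 and mir-222 lie at a minor arm of 0.94%.

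Class differences in arm use were tested by the ratio of the arms and by the share in points. The permutation p-values of the share are not adjusted, while those of edgeR are adjusted over 238 hairpins. They can therefore not be set against each other at 1 threshold. In the edgeR test of the 5p to 3p ratio over 238 hairpins, 5.88% were called between nervous and other adult tissue and 19.7% between embryo and other adult, and none of the 3 was among them in either comparison. For mir-126a the mean 5p share was 20.9% ± 1.21 (SD, n = 3) in nervous tissue, 22.2% ± 2.62 (SD, n = 3) in embryos and 22.5% ± 4.49 (SD, n = 9) in the other adult tissues, and the 2-sided exact permutation p was 0.64 and 0.95. For mir-221 the means were 1.26% ± 0.57, 0.734% ± 0.047 and 0.905% ± 0.359 in the same order, with exact permutation p of 0.23 and 0.45. For mir-222 the embryos averaged 1.78% ± 0.20 (SD, n = 3), 1.02 points above the 0.760% ± 0.567 (SD, n = 9) of the other adult tissues. The exact permutation test over the 220 splits gave an unadjusted p = 0.018, the smallest of the 6 share tests. The embryo shares of 1.57%, 1.97% and 1.803% rest on 12, 18 and 28 reads of the 5p strand, and liver lay among them. The log2 odds in the edgeR fit were 1.21 ± 0.46 (SE) with an adjusted p of 0.065 over all hairpins, and 0.027 to 0.18 over the alternatives tried; the exact permutation p was 0.073 without either the 15-day or the 17-day embryo. The nervous mean for mir-222, 0.655% ± 0.404, gave an exact permutation p of 0.82.

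The guide strands miR-222-3p and miR-221-3p had similar orders of libraries, while their ratio differed between tissues. miR-222-3p made up 50.9% (49.4 to 52.4%) of the reads of both in spinal cord and 50.8% (50.3 to 51.3%) in brain, where the strands were nearly equal. Its share was 43.2% in stomach, 41.1% in the 11-day embryo, 40.0% in lung, 38.2% in the 17-day and 36.9% in the 15-day embryo. It was 35.0% in smooth muscle and in spleen, 33.6% in eye, 32.6% in kidney, 31.9% in salivary gland and 31.2% (24.3 to 38.7%) in testis. Heart had 26.5% and liver only 21.1% (19.9 to 22.3%), so that liver had 0.267 reads of miR-222-3p for each of miR-221-3p. The eye did not share the even balance of brain and spinal cord. This ratio needs no scaling between libraries, but the capture of each strand can differ, so it is a ratio of reads rather than of molecules.

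The SD of the log2 ratio over the 15 libraries was 0.52 and the Pearson r of the log2 levels was 0.945. The background was 79 pairs of neighbouring hairpins on 1 strand whose starts lie within 10000 bases, taken by the most abundant strand listed for each hairpin where its name belongs to that hairpin alone. Over these pairs the median SD was 0.91, and miR-221-3p with miR-222-3p was 9th lowest; its r ranked 34th, near the median of 0.934. Since both carry the same seed, their summed level is also given: it was 10757 CPM in brain, 9767 in kidney, 9602 in lung and 8408 in salivary gland, and 541 in the 11-day embryo. miR-126a-3p had an r of 0.667 with miR-221-3p and 0.502 with miR-222-3p over the same 15 libraries.

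**Figure D4:**
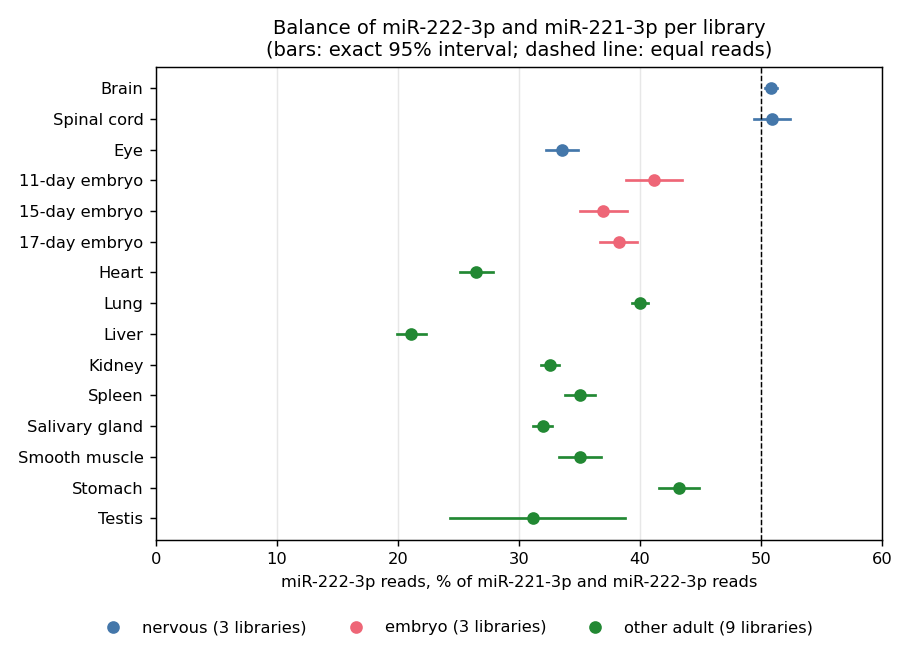
Reads of miR-222-3p as a percent of the reads of miR-221-3p and miR-222-3p in each library, with exact 95% intervals; the dashed line marks equal reads. Brain and spinal cord sit at the line, and liver, at 21.1%, is farthest from it.

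In embryos 5 of the 6 strands were lower than in the other adult tissues by edgeR's quasi-likelihood test with TMM scaling, where 17.2% of all names were called lower. miR-126a-3p averaged 3812 ± 358 CPM (SD, n = 3) in embryos and 34312 ± 37895 CPM (SD, n = 9) in the other adult tissues, a log2 difference of -3.17 ± 1.02 (SE) with an edgeR adjusted p of 0.019. miR-126a-5p differed by -3.26 ± 1.07 on the log2 scale (edgeR adjusted p 0.021). miR-221-3p averaged 378 ± 63 CPM against 3577 ± 2074 CPM, a log2 difference of -3.24 ± 0.83 (edgeR adjusted p 0.0048). miR-221-5p differed by -3.39 ± 0.82 (edgeR adjusted p 0.0031) and miR-222-3p by -2.92 ± 0.89 (edgeR adjusted p 0.014). miR-222-5p, at -1.69 ± 0.77, did not pass (edgeR adjusted p 0.084). Over the alternatives tried its edgeR or DESeq2 adjusted p ran from 0.016 to 0.84. It passed in DESeq2 (adjusted p 0.019), and in edgeR without testis (adjusted p 0.030) and without testis and smooth muscle (0.016). For miR-126a-3p, miR-126a-5p, miR-221-3p and miR-221-5p all 3 embryos lay below every other adult library, as 12.3% of all names did. For miR-222-3p testis lay among the embryos. By counting intervals, testis overlapped the 15-day embryo for miR-126a-5p (1233 to 1542 against 1171 to 1239 CPM). It also overlapped the 17-day embryo for miR-221-3p (424 to 615 against 426 to 461 CPM). For miR-221-5p testis rested on 2 reads, and its interval (1.06 to 31.7 CPM) held the level of every embryo.

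These embryo calls depend on the scaling. With total counts, none of the 6 passed: the log2 differences were -1.47 for miR-126a-3p, -1.56 for miR-126a-5p, -1.802 for miR-221-3p, -1.95 for miR-221-5p, -1.51 for miR-222-3p and -0.20 for miR-222-5p, with edgeR adjusted p of 0.13, 0.13, 0.066, 0.053, 0.17 and 0.84. Total counts moved the median log2 difference of all names from 0.10 to 1.38, a shift of 1.28, and the split of calls from 187 higher and 119 lower to 287 higher and 42 lower. Relative to that median all 6 strands stayed lower but came closer to it with total counts. miR-126a-3p was at -3.27 from it with TMM and -2.85 with total counts, and miR-221-3p at -3.34 and -3.18. In percent of reads all 3 embryos were below every other adult library for miR-221-5p alone (4.47% of all names). That order rests on few reads: the 17-day embryo had 0.000648% (17 reads) and smooth muscle 0.000694% (12 reads). For miR-221-3p the embryos had 0.0714% to 0.0939% and only testis (0.0790%) lay among them, and for miR-126a-3p testis, stomach and smooth muscle (0.795%) were at or below the highest embryo. Over the alternatives tried, the edgeR or DESeq2 adjusted p ran from 0.00038 to 0.13 for miR-126a-3p, from 0.00042 to 0.13 for miR-126a-5p, from 9.2e-06 to 0.066 for miR-221-3p, from 9.1e-06 to 0.053 for miR-221-5p and from 0.00031 to 0.17 for miR-222-3p. Leaving out any 1 embryo ended the call of miR-126a-3p (adjusted p 0.050 to 0.060, TMM) and of miR-126a-5p (0.062 to 0.064), and leaving out the 11-day or the 15-day embryo that of miR-222-3p (0.052 and 0.058), while the log2 differences were not smaller: -3.20 to -3.39 for miR-126a-3p, -3.35 to -3.44 for miR-126a-5p, and -3.04 and -3.01 for miR-222-3p.

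None of the 6 strands was called between nervous and other adult tissue, where edgeR called 41% of all names. miR-126a was lower in each of the 3 nervous libraries than in the median other adult library: the 3p strand had 6468 ± 1775 CPM (SD, n = 3), a log2 difference of -2.41 ± 0.97 (edgeR adjusted p 0.059), and the 5p strand differed by -2.61 ± 1.02 (edgeR adjusted p 0.053). These values were just outside the threshold, and the adjusted p of the alternatives ran from 0.0070 to 0.17 and from 0.0049 to 0.16. Both passed in DESeq2, when testis or stomach was left out, and without testis and smooth muscle (edgeR adjusted p 0.030 and 0.025). Only the 5p strand passed without smooth muscle alone and with the size factors of DESeq2 (edgeR adjusted p 0.046 in each). Neither passed with total counts (-1.67 and -1.87). The other strands had differences of either sign. miR-221-3p differed by -0.49 ± 0.69, miR-221-5p by 0.13 ± 0.65, miR-222-3p by 0.38 ± 0.72 and miR-222-5p by -0.58 ± 0.71 (edgeR adjusted p 0.56, 0.87, 0.67 and 0.51). The positive signs were lost without brain. The differences were then -1.72 for miR-221-3p, -1.44 for miR-221-5p, -1.31 for miR-222-3p and -1.15 for miR-222-5p, and none passed the test. That of miR-221-5p was also below 0 without the 11-day embryo (-0.027), without the 17-day embryo (-0.039) and without testis and smooth muscle (-0.078).

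**Figure D5:**
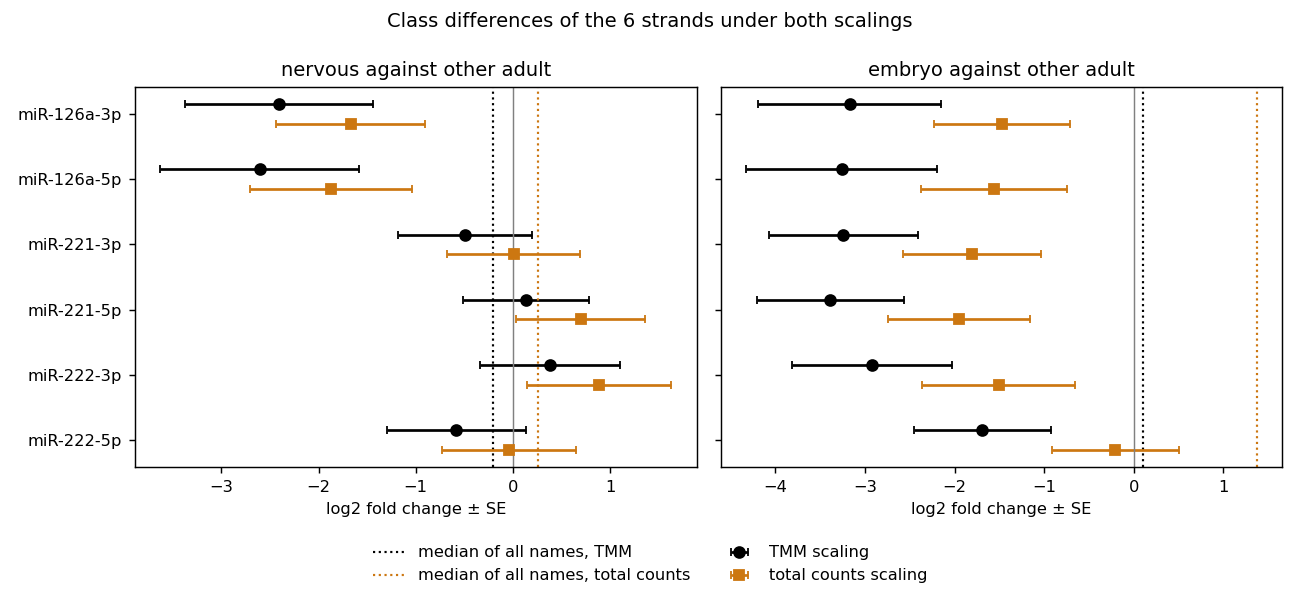
Log2 fold change ± SE of each strand, nervous (left) and embryo (right) against the other adult tissues, with TMM (black circles) and total-count scaling (orange squares); dotted lines mark the median of all names under each scaling. In embryos the strands lie 1.58 to 3.49 below the median of all names under either scaling, while the distance from 0 is smaller with total counts.

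Markers of other cell types moved with the same contrasts, and their part in the results above was not tested. Of all 693 names, edgeR with TMM called 17.2% lower and 27% higher in embryos, and 12.6% lower and 28.4% higher in nervous tissue. With total counts it called 42 names lower and 287 higher in embryos, and 56 lower and 226 higher in nervous tissue. Of the smooth muscle miRNAs miR-143 and miR-145a, all 4 strands were lower in embryos and in nervous tissue. Their summed level was 4291 to 7313 CPM in embryos, 5812 to 20954 in nervous and 28805 to 317520 in the other adult tissues; with total counts 3 of 4 were lower in embryos. Of 8 blood cell miRNAs 3 were lower in embryos (miR-142a-5p, miR-223-3p and miR-150-5p, of which only miR-150-5p passed with total counts) and 6 in nervous tissue, with sums of 17354 to 51196, 8852 to 20198 and 15570 to 472119 CPM. miR-451a of red blood cells was highest in lung (146344 CPM), which was also the top library for miR-126a-5p. Of 4 neuronal miRNAs, miR-9-5p and miR-124-3p were higher in embryos and all 4 in nervous tissue, the sums being 19232 to 38238, 86628 to 190788 and 577 to 2503 CPM; with total counts all 4 were called higher in embryos too. Among markers of single tissues, miR-1a-3p of muscle was highest in the heart library (387902 CPM), miR-122-5p of hepatocytes in the liver library (619675 CPM) and miR-34c-5p of germ cells in the testis library (31570 CPM). Between classes, 3 of 7 epithelial miRNAs (miR-141-3p, miR-192-5p and miR-194-5p), miR-122-5p and 1 of 4 muscle miRNAs (miR-208a-3p) were lower in nervous tissue and none was called in embryos, and none of 3 germ cell miRNAs tested was called; with total counts miR-192-5p was the only epithelial one still called.

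A list of 20 other miRNAs known from blood vessels gave a background for the members. In embryos 7 were lower and 0 higher with TMM, where 17.2% and 27% of all names were. The median log2 difference was -1.58, against 0.10 for all names. With total counts 2 were lower and 5 higher, where 42 and 287 of all 693 names were, and the median was -0.15 against 1.38. Those lower with TMM were miR-23a-3p (-3.21), miR-27a-3p (-2.86), miR-24-3p (-2.42), miR-23b-3p (-2.40) and miR-27b-3p (-1.99), made from paired clusters that are known from endothelium, together with let-7f-5p (-2.93) and miR-155-5p (-3.86), the last an miRNA of activated leukocytes as well. Of these, miR-23a-3p and let-7f-5p stayed lower with total counts. The members of the miR-17 to miR-92 cluster, known for driving proliferation, were not lower there: miR-17-5p differed by 0.88 and miR-18a-5p by 1.57 (edgeR adjusted p 0.21 and 0.089 with TMM), and both were called higher with total counts. In nervous tissue 6 of the 20 were lower (12.6% of all names with TMM) and 1 higher (28.4% of all names) under either scaling. miR-132-3p, an miRNA induced by neuronal activity as well as in angiogenic endothelium, was the one that was higher, by 3.97 ± 0.73 (edgeR adjusted p 0.00044), and miR-17-5p, miR-18a-5p, miR-19b-3p, miR-20a-5p, miR-27a-3p and miR-155-5p were lower.

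The names whose log2 levels followed the guide strands most closely were found over the 693 names and 15 libraries by Pearson r. For miR-126a-3p they were let-7j (r = 0.897), miR-24-2-5p (0.876), miR-30a-5p (0.874), miR-26a-2-3p (0.867) and miR-30d-3p (0.847), with a median r of -0.10 over all names. For miR-221-3p they were miR-101c (0.923), miR-101a-3p (0.899), miR-26a-5p (0.892), miR-101a-5p (0.844) and miR-29b-3p (0.841), with a median of -0.17. For miR-222-3p they were miR-187-3p (0.857), miR-26a-5p (0.850), miR-101c (0.798), miR-29b-3p (0.797) and miR-29c-5p (0.783), with a median of -0.11. miR-26a-5p, miR-101c and miR-29b-3p were thus on both lists of the shared seed. The points share library, scaling and depth, let-7j and miR-101c belong to families of closely similar members whose reads the counting may have shared, and the lists depend on the measure. With Spearman's rho none of the 5 names of miR-126a-3p remained, and 3 of 5 did for each of miR-221-3p and miR-222-3p; miR-26a-5p was then on neither list.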

How the data were processed

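Each deposited file lists 1 library's raw counts of reads by mature miRNA, which the authors made with bcl2fastq 1.8.4, cutadapt, BWA and bedtools on build mm10, per the submitters' processing notes; options, annotation release and the handling of reads with several matches are not stated in the labels. RNA was size-selected on a gel, per the labels' protocols. Names absent from a library were taken as 0. Abundance was tested with edgeR 4.0.16 (R 4.3.3; filterByExpr, TMM, quasi-likelihood, Benjamini-Hochberg adjustment over 693 names, threshold 0.05) in 1 fit of all 15 libraries. Arm usage was tested with edgeR as the interaction of arm and class with libraries as blocks, for the 238 hairpins that reached 20 reads in 8 or more libraries. Differences in 5p share used 2-sided exact permutation tests; 6 were computed, and no p adjusted over these 6 is given, because the members were chosen with results known. Share intervals are Clopper-Pearson and level intervals exact Poisson, at 95%. DESeq2 1.42.0, limma 3.58.1, other scalings, no filter and leaving out libraries were alternatives; limma used log2 ratios with a pseudocount of 0.5. Python 3.11.15, scipy 1.17.1 and matplotlib 3.10.9 were used otherwise. Both edgeR tests were also run on simulated counts with set changes in the nervous class, and the outcome is not reported here.

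With 1 library per tissue or stage, p-values measure the spread between tissues of a class, which may in part be technical, and not between animals. Both comparisons use the same 9 other adult libraries. The members, tissue classes and lists were chosen with earlier results of these data known. The text names the 6 members, miR-126b, the 5 names nearest to each guide strand by Pearson r, the 2 most abundant names of a list, and, chosen after their values were seen, further list members that passed the test. Gene positions are from GENCODE and RefSeq on GRCm38, the assembly that mm10 names.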

Additional observations from a re-analysis of the deposited data

How the results depend on the processing

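The difference of miR-221-3p between nervous and other adult tissue was -0.49 with TMM and 0.0064 with total counts, and that of miR-221-5p was -0.078 without testis and smooth muscle; neither passed the edgeR test under any alternative. The count of hairpins called for arm usage in embryos was 47 with edgeR and 18 with limma. Leaving out 1 library at a time gave 186 to 303 names called in nervous tissue (284 with all; 186 without brain) and 255 to 343 in embryos (306 with all), and 4 to 28 hairpins called for arm usage in nervous tissue (14 with all; 6 without brain, 4 without spinal cord, 28 without stomach) and 26 to 49 in embryos (28, 26 and 28 without the 11-, 15- and 17-day embryo). It gave log2 differences of -1.44 to 0.58 for miR-221-5p and -1.31 to 0.81 for miR-222-3p in nervous tissue, log2 odds of -1.05 to 0.094 for mir-222 in nervous tissue and -0.083 to 0.12 for mir-126a in embryos, and 5p share differences of -1.18 to 1.21 points for mir-126a in embryos, -0.31 to 0.091 for mir-222 in nervous tissue and 0.93 to 1.14 for mir-222 in embryos. With no filter on low counts the embryo calls of miR-126a-3p, miR-126a-5p and miR-222-3p were lost (adjusted p 0.060, 0.061 and 0.052); the cause was not tested. No paired analysis was possible, since each tissue or stage has 1 library and the classes hold different tissues. Depth limits the 5p strands of miR-221 and miR-222 most, and testis above all, where 3 reads correspond to 20.3 CPM on the total-count scale.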
